A study of Mus musculus with 6 samples.

Results

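The genes described are 10 members of the Akt-mTOR-FoxO axis and its atrophy ligases (Akt1, Akt2, Mtor, Rptor, Tsc2, Foxo1, Foxo3, Foxo4, Fbxo32, and Trim63), taken by gene name from the 49671 genes in the deposited tables. RNA-Seq was performed on muscle stem cells (MuSCs) of female C57BL/6 mice aged 4 to 6 months, 3 given resolvin D1 (RvD1) and 3 given vehicle. Every mouse received 50 μL of 1.2% barium chloride into each tibialis anterior (TA) muscle, which destroys myofibers, and cells were sorted at day 3. RvD1, a lipid mediator that promotes the resolution of inflammation, was injected IP at 100 ng daily, and vehicle was 0.1% ethanol. Sorting kept β1-integrin+ CXCR4+ cells and discarded Sca-1+, CD11b+, Ter119+, and CD45+ cells, with CD31 also listed among the excluded markers in the sample labels. Both TA muscles of a mouse were pooled into 1 library, so each value comes from a separate mouse. No uninjured library is among these samples, so injury is shared by both groups.

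Akt is a kinase that growth factors activate through phosphoinositide 3-kinase (PI3K). Akt inhibits the TSC1-TSC2 complex, which relieves the brake on the kinase mTOR and its complex mTORC1, and protein synthesis increases. Akt also phosphorylates FoxO transcription factors, which then leave the nucleus. In wasting myofibers, nuclear FoxO activates the genes for the ubiquitin ligases atrogin-1 (Fbxo32) and MuRF1 (Trim63). Much of this regulation acts on proteins, which RNA levels do not measure.

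The libraries held 16148026 to 28149176 expected counts, and RvD1 replicate 2 was the deepest. The sorted cells contained transcripts of the myogenic lineage, with mean levels over the 6 libraries of 5.41 TPM for Pax7, 356 TPM for Myod1, and 977 TPM for Myog. TPM is a level scaled for transcript length and depth. Among myofiber markers, the myosin heavy chain genes Myh4 (0.658 TPM), Myh2 (0.0233 TPM), and Myh1 (8.13 TPM) were low. Pvalb (0.402 TPM), Mb (3.1 TPM), and Ckm (17.7 TPM) were low as well. By contrast, Acta1 (484 TPM), Mylpf (436 TPM), Tnnt3 (235 TPM), Atp2a1 (187 TPM), and Tnnc2 (121 TPM) were abundant. Summed levels of 11 MuSC and myoblast markers were 3590 to 4370 TPM with RvD1 and 3340 to 3680 TPM with vehicle. The 11 myofiber markers summed to 1160 to 2020 TPM and 1300 to 1670 TPM, the 5 regenerating myofiber markers to 389 to 764 TPM and 487 to 601 TPM, the 6 endothelial markers to 9.41 to 15.2 TPM and 6.95 to 20.6 TPM, and the 5 erythroid markers to 11.4 to 95.6 TPM and 32.0 to 79.3 TPM. In bulk RNA, a smaller number of cells of some type and less RNA per cell cannot be told apart.

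None of the 10 genes passed the test for a difference between RvD1 and vehicle. Each passed the filter on low counts, and 0 had an adjusted p under 0.05 in edgeR's quasi-likelihood test, as for 0.00% of the 14494 genes tested. An unadjusted p under 0.05 was also found for 0 of the 10 genes, against 3.47% of all tested genes. DESeq2 and limma-voom called 0 of the 10 as well, with 0 at an unadjusted p under 0.05. The groups overlapped for all 10 genes in normalized log2 CPM (counts scaled to library size), and 9.62% of tested genes did not overlap. The log2 fold changes of RvD1 over vehicle ran from −0.51 for Foxo4 to 0.30 for Trim63. Their median was 0.03, beside 0.01 over all tested genes.

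The axis spanned a wide range of RNA levels. Akt1 was the most abundant member at 278 ± 18.0 TPM (SD, n = 6), above 95.2% of the tested genes. It was followed by Akt2 at 95.6 TPM, Tsc2 at 48.8 TPM, Rptor at 20.9 TPM, and Mtor at 18.9 TPM. Fbxo32 (13.5 TPM), Foxo1 (5.13 TPM), Trim63 (3.58 TPM), Foxo3 (2.28 TPM), and Foxo4 (1.41 TPM) made up the lower part of the order. Foxo4 lay above 14.3% of the tested genes. Neighbors in this order had separate ranges over the 6 libraries, except that Rptor overlapped Mtor and Foxo1 overlapped Trim63. Rptor exceeded Mtor in 4 of 6 libraries, and Foxo1 exceeded Trim63 in 5 of 6.

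**Figure D1:**
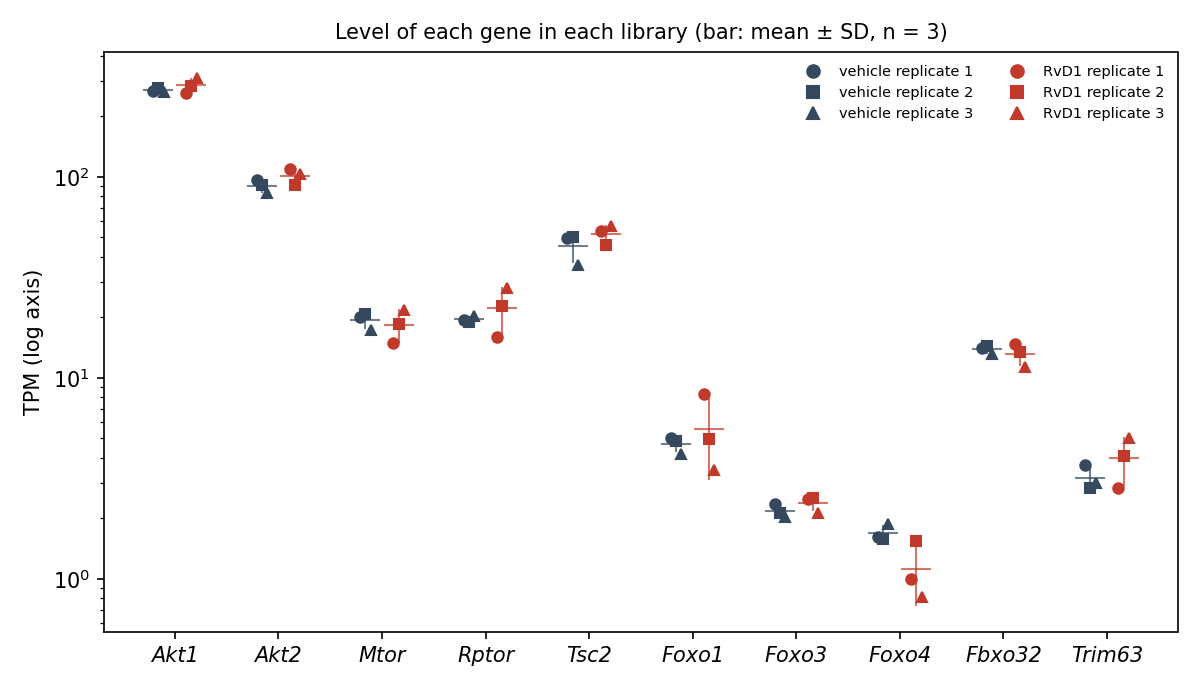
Level in TPM (log axis) of each of the 10 genes in each library, with vehicle in dark blue and RvD1 in red. Points are libraries, marked by replicate number, and bars give the mean ± SD (n = 3). Akt1 lies at 262 to 311 TPM and Foxo4 at 0.81 to 1.88 TPM, and the RvD1 points of Foxo1, Rptor, and Trim63 are more spread out than the vehicle points.

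Akt1 and Akt2 encode 2 isoforms of the kinase. Akt1 (ENSMUSG00000001729, chromosome 12 of GRCm38, 112653821 to 112674884) was at 262, 283, and 311 TPM in RvD1 replicates 1, 2, and 3 and at 269, 277, and 265 TPM in the vehicle replicates. The vehicle values lay within the range of the RvD1 values. The log2 fold change was −0.04 (95% interval −0.27 to 0.18, adjusted p = 0.977 from edgeR), so that a difference beyond 0.83-fold or 1.14-fold lay outside the interval. On the TPM scale the difference of Akt1 had the opposite sign, at 0.07 in log2(TPM + 1). Akt2 (ENSMUSG00000004056, chromosome 7, 27591552 to 27640826) was at 109, 91.0, and 103 TPM with RvD1 and 96.0, 91.2, and 83.2 TPM with vehicle, and the groups overlapped. Its log2 fold change was 0.05 (95% interval −0.16 to 0.26), the narrowest interval of the 10 genes.

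Mtor (ENSMUSG00000028991, chromosome 4, 148448611 to 148557683) encodes the kinase of both mTOR complexes. Its level was 14.9, 18.5, and 21.9 TPM in RvD1 replicates 1, 2, and 3 and 20.0, 20.7, and 17.4 TPM with vehicle. RvD1 replicate 1 was the lowest library and RvD1 replicate 3 the highest. Its log2 fold change was 0.01 (95% interval −0.27 to 0.28). Angptl7 lies within the Mtor locus on the opposite strand and had 3693 counts in RvD1 replicate 1 against 728 to 1231 in the other libraries. Mtor counts in RvD1 replicate 1 were 1030, and whether the shared locus affected them was not tested.

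Rptor (ENSMUSG00000025583, chromosome 11, 119602905 to 119899576) encodes raptor, the subunit that recruits substrates to mTORC1. It was at 16.02, 22.8, and 27.8 TPM with RvD1 and at 19.5, 18.9, and 20.2 TPM with vehicle. The vehicle libraries were close together, and the RvD1 libraries lay on both sides of them. For Rptor, the log2 fold change was 0.13 (95% interval −0.31 to 0.56). Omission of RvD1 replicate 1 gave 0.34 (edgeR, unadjusted p = 0.00527, adjusted p = 0.967), and omission of RvD1 replicate 3 gave −0.05.

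Tsc2 (ENSMUSG00000002496, chromosome 17, 24595816 to 24632630) encodes tuberin, the part of the TSC complex that turns off the mTORC1 activator Rheb. Its values were 53.8, 46.0, and 57.1 TPM with RvD1 and 49.4, 50.4, and 36.2 TPM with vehicle. Vehicle replicate 3 was the lowest library, and the other 5 overlapped. The log2 fold change was 0.22 (95% interval −0.05 to 0.49, unadjusted p = 0.104, adjusted p = 0.971 from edgeR), and 0.135 without vehicle replicate 3. Without RvD1 replicate 2 it was 0.30, with an unadjusted p = 0.0398 and an adjusted p = 0.726 in edgeR. Tsc2 expected counts were fractional, as RSEM can divide reads between genes. Those of Akt2, Rptor, and Fbxo32 were fractional too, whereas those of Mtor and Angptl7 were whole numbers. Pkd1 overlaps Tsc2 on the other strand. Pkd1, like Tsc2, had its lowest level in vehicle replicate 3 (12.8 TPM). Their highest libraries differed, with Pkd1 highest in RvD1 replicate 1 and Tsc2 in RvD1 replicate 3, where Pkd1 was at 19.2 TPM. The part of Pkd1 in the Tsc2 values was not tested.

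**Figure D2:**
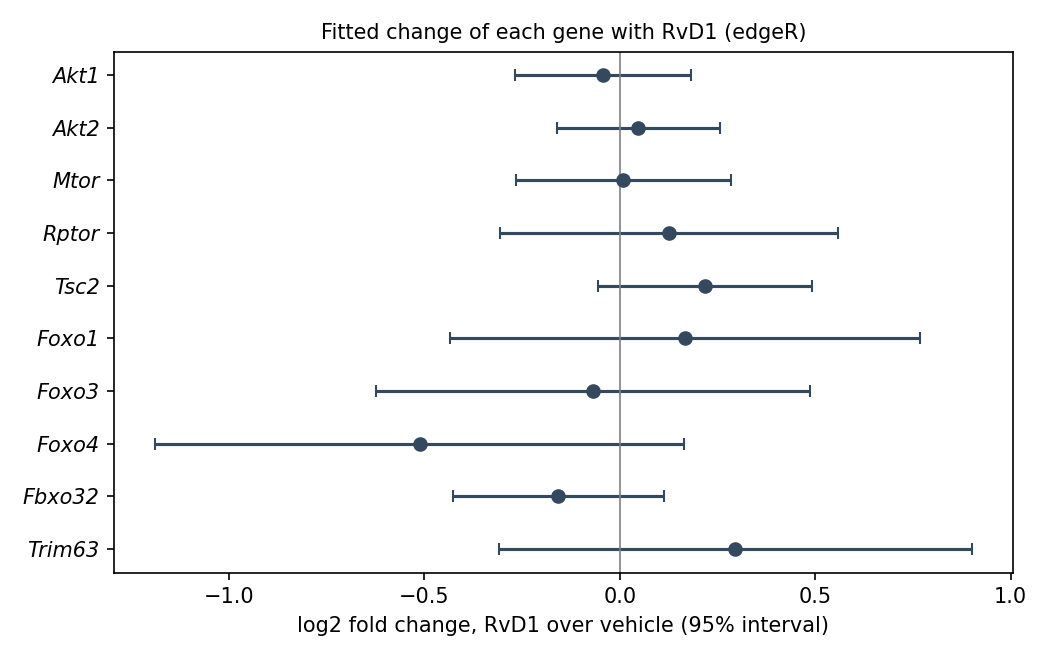
Log2 fold change of RvD1 over vehicle for each of the 10 genes with its 95% interval, from edgeR's quasi-likelihood fit of 3 against 3 libraries. Every interval includes 0, and those of Foxo1, Foxo3, Foxo4, and Trim63 are wider than those of Akt1, Akt2, Mtor, Tsc2, and Fbxo32.

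Foxo1, Foxo3, and Foxo4 encode the FoxO factors that Akt phosphorylates. Foxo1 (ENSMUSG00000044167, chromosome 3, 52268336 to 52353221) had the largest spread among RvD1 libraries of the 10 genes. It was at 8.30, 4.96, and 3.47 TPM in RvD1 replicates 1, 2, and 3 and at 5.03, 4.83, and 4.2 TPM with vehicle. Both the highest and the lowest library belonged to RvD1. The SD of log2 CPM was 0.62 among RvD1 libraries and 0.11 among vehicle libraries. The log2 fold change was 0.17 (95% interval −0.43 to 0.77). Omission of RvD1 replicate 1 gave −0.20 and omission of RvD1 replicate 3 gave 0.41, so that its sign turned when a single mouse was left out.

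Foxo3 (ENSMUSG00000048756, chromosome 10, 42181841 to 42276755) was at 2.5, 2.53, and 2.13 TPM with RvD1 and 2.36, 2.12, and 2.03 TPM with vehicle, and the groups overlapped. The log2 fold change was −0.07 (95% interval −0.62 to 0.49) on counts and 0.09 on log2(TPM + 1). Foxo3 counts ranged from 77 to 180.

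Foxo4 (ENSMUSG00000042903, chromosome X, 101254528 to 101260873) was the rarest member, with 27 to 61 counts. It was at 1.00, 1.55, and 0.81 TPM with RvD1 and 1.61, 1.58, and 1.88 TPM with vehicle. In TPM the highest RvD1 library lay just under the lowest vehicle library. Foxo4 was the only 1 of the 10 genes without overlap on this scale, on which 11.4% of tested genes did not overlap. In normalized log2 CPM, RvD1 replicate 2 (1.187) lay above vehicle replicate 3 (1.184), and the groups overlapped. The log2 fold change was −0.51 (95% interval −1.19 to 0.17, unadjusted p = 0.121, adjusted p = 0.971 from edgeR). It kept this sign under every alternative listed in the closing section, between −0.66 and −0.30, with the smallest adjusted p at 0.51. Tsc2 (0.135 to 0.30), Fbxo32 (−0.22 to −0.05), and Trim63 (0.14 to 0.49) also kept their sign under these alternatives. At this depth, the interval of Foxo4 includes both no difference and a decrease to 0.44-fold.

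Fbxo32 (ENSMUSG00000022358, chromosome 15, 58175879 to 58214932) encodes atrogin-1, the substrate receptor of an SCF ubiquitin ligase. It was at 14.8, 13.5, and 11.3 TPM in RvD1 replicates 1, 2, and 3 and at 14.1, 14.5, and 13.1 TPM with vehicle. RvD1 replicate 3 was the lowest library and the other 5 were close to one another. Fbxo32 had a log2 fold change of −0.16 (95% interval −0.43 to 0.11) and −0.05 without RvD1 replicate 3.

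Trim63 (ENSMUSG00000028834, chromosome 4, 134315120 to 134329629) encodes MuRF1, a RING-finger ligase of the sarcomere. It had 67, 127, and 93 counts with RvD1 and 61, 54, and 64 with vehicle, or 2.84, 4.08, and 5.02 TPM and 3.70, 2.83, and 2.99 TPM. In TPM, RvD1 replicates 2 and 3 were above every vehicle library and RvD1 replicate 1 was among them. Trim63 had a log2 fold change of 0.30 (95% interval −0.31 to 0.90), and omission of RvD1 replicate 1 or 3 gave 0.49 or 0.14. The atrophy ligases had fold changes of opposite sign, and neither differed from 0 beyond the spread between mice.

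The short motif GTAAACA, a core of the DNA element that FoxO factors bind, was searched on both strands in the 250 bases before each RefSeq start site (GRCm38.p6). It was present in 3.17% of 32851 promoters. The 12 promoters at hand belonged to 8 of the 10 genes, excluding Fbxo32 and Foxo4. The motif was found before Trim63 and before 1 of the 2 Akt1 start sites. The sequences show where this string of letters lies before members of the axis itself. Capitals mark the match, which lies on the opposite strand in both. The Trim63 stretch is chr4:134314876-134314982 (+ strand), with the match beginning 194 bases before the start site. The Akt1 stretch is chr12:112674989-112675095 (− strand), with the match beginning 161 bases before it.
Trim63: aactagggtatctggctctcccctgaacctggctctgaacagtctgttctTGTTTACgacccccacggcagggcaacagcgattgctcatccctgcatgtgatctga
Akt1: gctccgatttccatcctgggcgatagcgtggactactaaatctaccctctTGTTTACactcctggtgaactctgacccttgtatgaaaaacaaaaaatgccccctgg
A match describes the letters and does not show binding, and RNA levels of both genes are those given above.

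Most of the 10 genes varied more among RvD1 mice than among vehicle mice. The SD of log2 CPM was larger with RvD1 for 8 of the 10 genes, and for 69.6% of all tested genes. The median SD of the 10 genes was 0.23 with RvD1 and 0.10 with vehicle, beside 0.23 and 0.14 over all tested genes. In log2 CPM, RvD1 replicates 1 and 3 together gave the lowest value of 8 genes and the highest value of 6. In RvD1 replicate 1, Foxo1 and Akt2 were at their highest, while Akt1, Mtor, Rptor, and Trim63 were at their lowest. In RvD1 replicate 3, Mtor, Rptor, Tsc2, and Trim63 were at their highest and Foxo1, Foxo3, Foxo4, and Fbxo32 at their lowest. Of all tested genes, RvD1 replicate 1 was the highest library for 30.6% and the lowest for 29.5%, and RvD1 replicate 3 was the highest for 18.9% and the lowest for 17.3%.

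**Figure D3:**
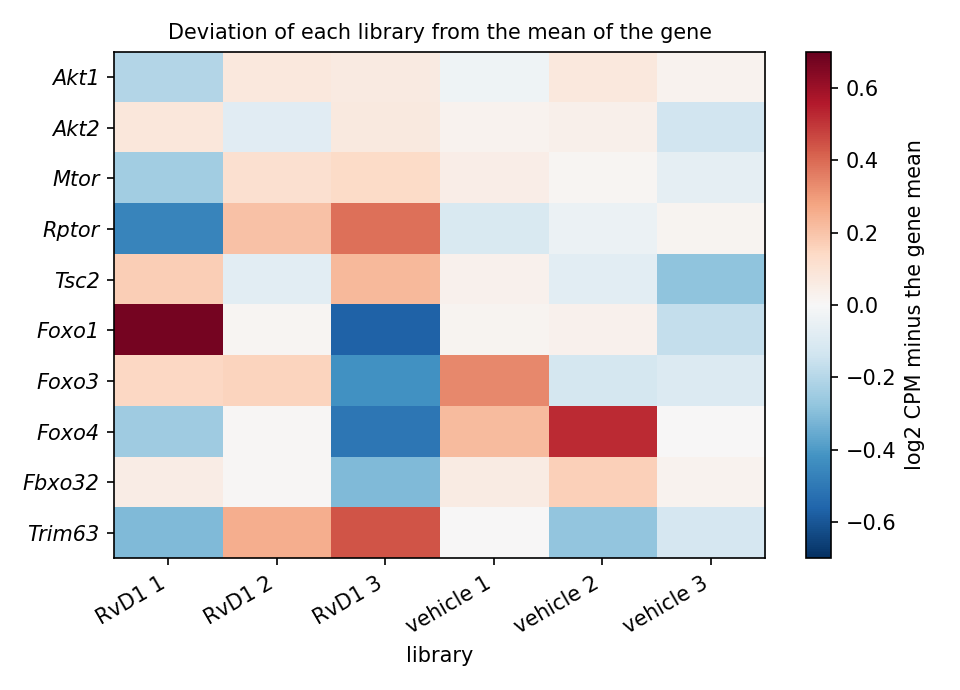
Log2 CPM of each of the 10 genes (rows) in each library (columns) after subtraction of the mean of the gene, from blue (below the mean) to red (above). RvD1 replicates 1 and 3 hold the strongest colors, with Foxo1 at 5.40 log2 CPM in RvD1 replicate 1 and 4.16 log2 CPM in RvD1 replicate 3, and Rptor at 5.72 and 6.57 log2 CPM.

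Several marker lists of other cells also had their highest sum in RvD1 replicate 1. The summed level of 6 fibro-adipogenic markers was 892 TPM in it, 326 and 539 TPM in RvD1 replicates 2 and 3, and 383 to 452 TPM with vehicle. All 6 had counts, and 5 had a fold change above 0. In edgeR, 1 of the 6 had an unadjusted p under 0.05 and 0 an adjusted p under 0.05. Dcn (450 TPM) and Col1a1 (347 TPM) made up most of the sum in RvD1 replicate 1. Ly6a, which encodes the Sca-1 that the sort discards, was instead at 25.4 TPM there and at 26.3 to 39.7 TPM with vehicle, and Pdgfra was at 3.48 TPM there and 3.55 TPM in RvD1 replicate 3. The 5 smooth muscle and pericyte markers summed to 67.5, 31.7, and 46.8 TPM in RvD1 replicates 1, 2, and 3 and to 27.2 to 32.6 TPM with vehicle, so that RvD1 replicates 1 and 3 lay above every vehicle library. All 5 had fold changes above 0, of which 2 had an unadjusted p under 0.05 and 0 an adjusted p under 0.05 in edgeR. The 4 Schwann cell markers, all with fold changes above 0, summed to 36.8, 15.0, and 20.9 TPM with RvD1 and to 12.1 to 19.0 TPM with vehicle. None of these markers was at 0 in every library. The 8 proliferation markers summed to 1450 TPM in RvD1 replicate 1 and to 1840 to 2050 TPM in the other libraries. In edgeR, 0 of these 8 had a fold change above 0, and 0 had an unadjusted p under 0.05. The part of these markers in the values of Foxo1, Mtor, Rptor, and Trim63 was not tested.

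Ratios between related genes within a library do not depend on how libraries are scaled to one another. For 5 ratios, RvD1 and vehicle were compared by an exact permutation test (two-sided), where 0.1 is the smallest p that 3 against 3 allow. The Akt1 to Akt2 ratio was 2.40, 3.10, and 3.02 with RvD1 and 2.80, 3.04, and 3.19 with vehicle. RvD1 replicate 1 was the lowest, and the groups overlapped (exact permutation p = 0.6, adjusted p = 1 over the 5 ratios). Foxo3 was lower than Foxo1 in every library, and the Foxo3 to Foxo1 ratio ran from 0.301 in RvD1 replicate 1 to 0.614 in RvD1 replicate 3, around vehicle values of 0.439 to 0.483. The difference on the log2 scale was −0.03 (exact permutation p = 1).

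Tsc2 exceeded its partner Tsc1 3.67- to 4.98-fold, with a log2 difference between groups of −0.04 (exact permutation p = 0.9). Rptor, the mTORC1 subunit, was less abundant than the mTORC2 subunit Rictor in all 6 libraries, at 0.384- to 0.925-fold. Both ends of that range belonged to RvD1, and the log2 difference was 0.00 (exact permutation p = 1). Fbxo32 exceeded Trim63 by 5.19-, 3.30-, and 2.25-fold with RvD1 and by 3.80-, 5.12-, and 4.38-fold with vehicle. The log2 difference was −0.38 (exact permutation p = 0.5), and −0.09 without RvD1 replicate 3. For each of the 5 ratios the adjusted p was 1 by the exact permutation test.

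**Figure D4:**
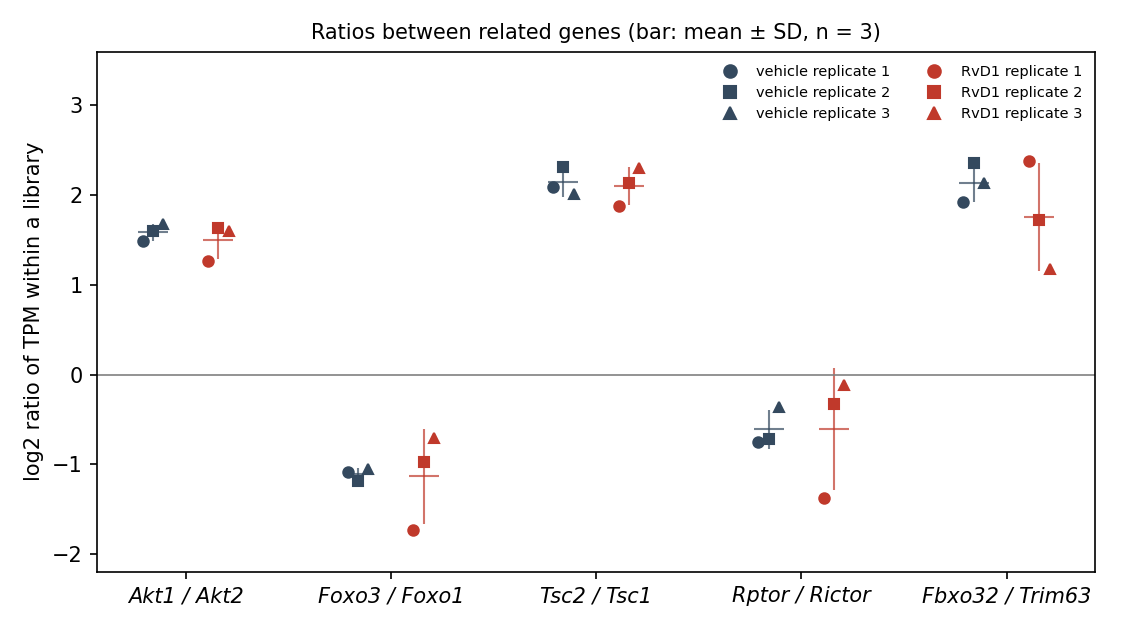
Log2 ratio of TPM between related genes within each library, with vehicle in dark blue and RvD1 in red. Points are libraries, marked by replicate number, bars give the mean ± SD (n = 3), and the grey line marks equal levels. The groups overlap for every ratio, and RvD1 replicate 1 is the lowest point for 4 of the 5 ratios and the highest for Fbxo32 to Trim63.

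The remaining parts of the pathway were read from 6 lists holding 94 other genes, of which 92 had enough counts to be tested. None had an adjusted p under 0.05 in edgeR, 1 had an unadjusted p under 0.05, and DESeq2 gave the same counts. The groups did not overlap for 6 of the 92 genes (6.52%, against 9.62% of all tested genes), with RvD1 above vehicle for 4 and below it for 2. The median log2 fold change was 0.04, from −0.78 to 0.70. These lists, like the 10 genes, were chosen with earlier results of these data known.

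Upstream of Akt, 17 kinases, adaptors, and phosphatases were tested, of which 0 passed. The most abundant was Gsk3b, a kinase that Akt inhibits, with a mean of 50.1 TPM in RvD1 libraries (SD 3.01, n = 3) and 48.6 TPM in vehicle libraries (SD 1.75). The largest log2 fold change in this list was that of Pik3cd, a PI3K catalytic subunit of leukocytes, at 0.33 (95% interval −0.37 to 1.02). The lowest was that of Inpp5d, an inositol phosphatase of blood cells, at −0.78 (95% interval −2.203 to 0.64), with 6, 16, and 19 counts with RvD1 and 19, 7, and 30 with vehicle. All 11 leukocyte markers had counts, and they summed to 42.7 to 61.2 TPM with RvD1 and to 53.4 to 93.6 TPM with vehicle. Fold changes were below 0 for all 10 leukocyte markers tested. In edgeR, 2 of the 10 had an unadjusted p under 0.05 and 0 an adjusted p under 0.05. The part of these markers in the Inpp5d value was not tested. Phlpp2, which dephosphorylates Akt, was at 0.477 TPM on average.

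Of 9 other mTOR complex genes, 0 passed the test. Mapkap1 (mSin1 of mTORC2) was the most abundant at a mean of 61.7 TPM. It was the 1 gene of this list without overlap in log2 CPM (log2 fold change 0.16, 95% interval −0.07 to 0.38, adjusted p = 0.971 from edgeR), although its TPM values of 58.0 to 75.3 with RvD1 and 50.03 to 64.7 with vehicle overlapped. Prr5l had the largest fold change at a mean of 0.545 TPM (0.70, 95% interval −0.64 to 2.05) and Prr5 the lowest (−0.11).

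Among 25 genes that act on mTORC1 at the lysosome, 12 had fold changes above 0 and 13 below, and the groups overlapped for all. Rheb, the GTPase that activates mTORC1, was the most abundant with a mean of 204 TPM in RvD1 libraries (SD 14.5, n = 3) and 209 TPM in vehicle libraries (SD 5.11). The log2 fold changes lay between −0.18 for Lamtor2, a subunit of the Ragulator scaffold, and 0.25 for Ddit4, which acts through TSC and is induced by stress.

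Of 13 mTORC1 outputs, 0 had an adjusted p under 0.05. Rps6, the ribosomal protein that S6 kinase phosphorylates, was the most abundant and also had the lowest fold change. It was at 786, 839, and 820 TPM with RvD1 and 852, 894, and 910 TPM with vehicle, so that the groups did not overlap (log2 fold change −0.20, 95% interval −0.41 to 0.0018, unadjusted p = 0.0517, adjusted p = 0.971 from edgeR). Tfeb, a regulator of lysosome genes that mTORC1 holds in the cytosol, was at 5.01, 5.20, and 5.06 TPM with RvD1 and 3.13, 3.93, and 4.24 TPM with vehicle. All 3 RvD1 libraries were higher (log2 fold change 0.45, 95% interval −0.04 to 0.95, unadjusted p = 0.067, adjusted p = 0.971 from edgeR).

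In the list of FoxO targets, which also holds the FoxO gene Foxo6, 12 of 13 genes were tested and 0 passed. Klf15 was too low to test, at 0.375 TPM. Map1lc3b, an autophagy gene, was the most abundant at 218 TPM on average. Txnip, an inhibitor of glucose uptake, had the largest fold change. It was at 45.2, 16.7, and 20.2 TPM with RvD1 and 16.7, 14.1, and 19.9 TPM with vehicle. In log2 CPM it was highest in RvD1 replicate 1, as were 30.6% of all tested genes. Its log2 fold change was 0.64 (95% interval −0.23 to 1.51) and the groups overlapped. Pdk4, which limits pyruvate oxidation, had the lowest at −0.13. Foxo6, the remaining FoxO gene, was at 2.78, 2.52, and 2.70 TPM with RvD1 and 2.05, 1.74, and 1.87 TPM with vehicle, without overlap (log2 fold change 0.42, 95% interval −0.08 to 0.92, unadjusted p = 0.0921, adjusted p = 0.971 from edgeR).

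Of 17 other muscle ubiquitin ligase genes, 16 were tested and 0 passed. Skp1a, the SCF subunit that links F-box proteins such as atrogin-1 to the ligase, was the most abundant and was the only gene of the 94 with an unadjusted p under 0.05. It was at 733, 626, and 566 TPM with RvD1 and 701, 700.01, and 668 TPM with vehicle, which overlapped in TPM but not in log2 CPM (log2 fold change −0.22, 95% interval −0.42 to −0.0069, edgeR unadjusted p = 0.0442, adjusted p = 0.971). Traf6, a ligase that acts in NF-κB signaling, was at 20.4, 19.2, and 20.2 TPM with RvD1 and 18.2, 15.6, and 15.1 TPM with vehicle. The groups did not overlap (log2 fold change 0.21, 95% interval −0.0046 to 0.42, adjusted p = 0.971 from edgeR). Asb2 had the largest fold change (0.28). Fbxo40, a ligase of mature myofibers, was at 0.0433 TPM and was not tested.

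Compared per length with these ligases, the atrophy ligases were not the most abundant. Fbxo30, which is also induced in wasting muscle, was at a mean of 114 TPM, Trim55 (MuRF2) at 28.2 TPM, Mdm2 at 142 TPM, and Nedd4 at 528 TPM, against 13.5 TPM for Fbxo32 and 3.58 TPM for Trim63. The lowest Fbxo30 library (87.2 TPM) lay above the highest Fbxo32 library (14.8 TPM). Other ligases of the list had lower means than Fbxo32, namely Trim32 (12.7 TPM), Fbxo31 (8.865 TPM), Asb2 (8.48 TPM), Trim54 (3.84 TPM), and Fbxo40 (0.0433 TPM). Only Fbxo40 had a lower mean than Trim63.

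**Figure D5:**
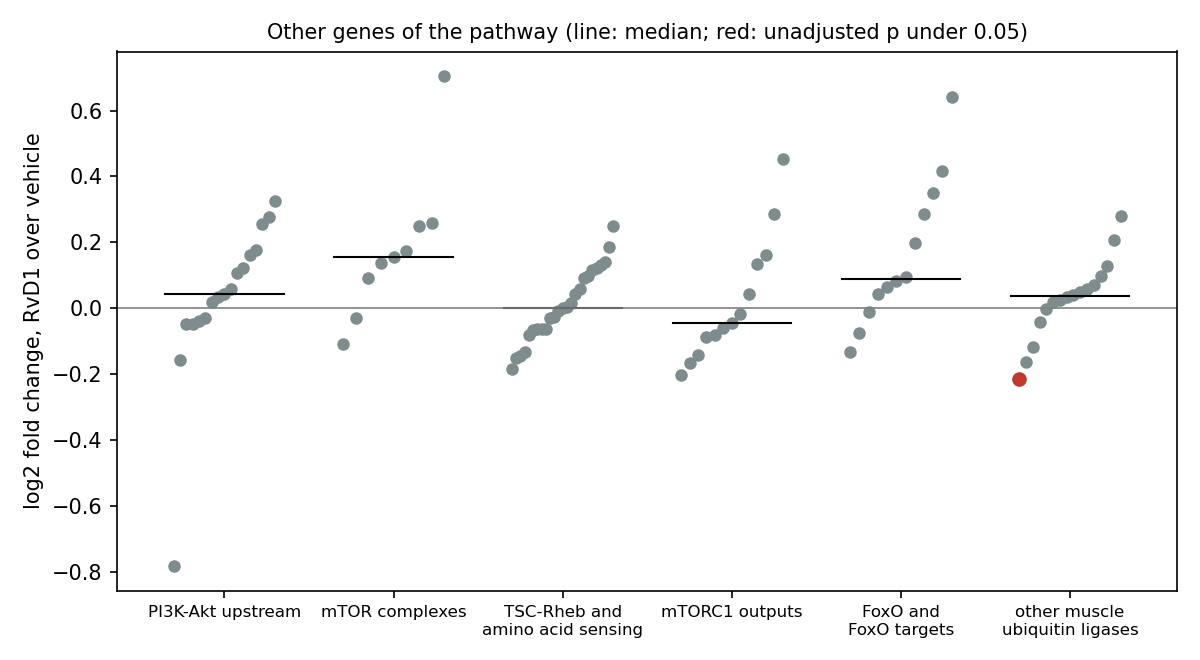
Log2 fold change of RvD1 over vehicle for the 92 tested genes of the 6 pathway lists, sorted within each list. Black lines are list medians and the red point, Skp1a, is the gene with an unadjusted p under 0.05. The points spread around 0 in every list, from −0.78 for Inpp5d to 0.70 for Prr5l.

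The genes whose pattern over the 6 libraries was most like that of the atrophy ligases were sought by Euclidean distance between log2 CPM values centered on each gene's mean, among 13179 genes. For Fbxo32 they were S100a11 (distance 0.0383), Samhd1 (0.0826), and Lamtor2 (0.0887), whereas the median gene was at 0.578 and the nearest other member at 0.441. For Trim63 they were Zscan18 (0.18), Xylb (0.183), and Zfp653 (0.206), with the median gene at 0.778 and the nearest other member at 0.34. With 6 libraries these distances describe the libraries at hand. Since the other members are far fewer than 13179 genes, their smallest distance cannot be compared with that of the nearest genes.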

How the data were processed

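RNA was taken from sorted MuSCs of 6 mice, 3 per group, and sequenced after SMART-Seq v4 and Nextera XT library preparation. The authors aligned reads to mm10 with STAR 2.5.0a and deposited RSEM values per gene, namely each expected count, TPM, and FPKM. The study's methods call the RNA-Seq data single-stranded, but the RSEM version and the strand setting used in counting are not given in the sources used here. The methods name no library step that keeps strand, so reads of genes on opposite strands may not have been separated.

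Expected counts were rounded, and genes kept by filterByExpr were tested with edgeR 4.0.16 (TMM, quasi-likelihood, R 4.3.3) and Benjamini-Hochberg adjustment over 14494 genes. Fold changes and 95% intervals come from this fit. Ratios of TPM were compared by exact permutation. Log2 CPM used a prior count of 2. Totals ranged from 16148026 to 28149176 counts, and 3 counts correspond to 0.107 to 0.186 CPM. Alternatives used DESeq2 1.42.0, other size factors, no filter, robust estimation, a replicate block, limma 3.58.1 with and without removal of 1 surrogate variable (sva 3.50.0), log2 TPM or FPKM, and the omission of each library. The edgeR step was tested on simulated data.

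The members and lists were chosen with earlier results of these data known. Of each list, the text names the most abundant gene, those with the highest and lowest fold change, those with an unadjusted p under 0.05, and those under 1 TPM. For Fbxo32 and Trim63 the 3 nearest genes are named. Foxo6, Traf6, Fbxo30, Trim55, Mdm2, Nedd4, Trim32, Fbxo31, Trim54, Angptl7, Pkd1, and the 8 proliferation markers were chosen after values were seen. Gene positions are from GENCODE M21.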

Additional observations from a re-analysis of the deposited data

How the results depend on the processing

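No setting called any of the 10 genes or the pathway genes. Over all genes, 0 were called, except 12 (of 26641) without a filter on low counts and 1 without RvD1 replicate 3, so that omission of 1 library gave 0 to 1. DESeq2 called 0, with 474 at an unadjusted p under 0.05. Whether replicate numbers pair the libraries was not settled. Deviations of same-numbered libraries correlated at 0.31, −0.00071, and 0.126, and 3 of 6 libraries correlated best with their own number in the other group. With the number as a replicate block 0 genes were called, and 896 rather than 503 had an unadjusted p under 0.05 (4 rather than 1 of the pathway genes). With a surrogate variable removed, 2973 of 26518 had one. Across settings with all libraries, 100 of the fold changes kept their direction and 10 turned. Akt1 turned to 0.01708 with a surrogate variable removed, 0.07484 and 0.07507 on log2(TPM + 1) and log2(TPM + 0.1), and 0.02724 on log2(FPKM + 1). On these last 3 scales Mtor turned to −0.07937, −0.0838, and −0.12, and Foxo3 to 0.09462, 0.13, and 0.05653. The cause was not tested. With 1 library left out, fold changes ran from −0.09227 to 0.044 for Akt1, −0.0058 to 0.10 for Akt2, −0.0557 to 0.12 for Mtor, −0.04973 to 0.34 for Rptor, −0.20 to 0.41 for Foxo1, and −0.17 to 0.10 for Foxo3. The ratio of Tsc2 to Tsc1 turned to 0.03347 on CPM. Its differences ran from −0.14 to 0.07282 with 1 library left out, those of Akt1 to Akt2 from −0.16 to 0.02843, Foxo3 to Foxo1 from −0.24 to 0.27, Rptor to Rictor from −0.25 to 0.39, and Fbxo32 to Trim63 from −0.69 to −0.09. Depth limits Foxo4, with 27 to 61 counts.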
